A study of Mus musculus with 16 samples.

Results

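The 10 Notch genes described here were taken by their mouse symbols from the 56748 genes of a count table of transfected TM4 cells. They comprise the receptors *Notch1*, *Notch2* and *Notch3*, the ligands *Jag1*, *Jag2* and *Dll1*, and the target genes *Hes1*, *Hey1*, *Hey2* and *Heyl*. TM4 is an established mouse cell line of Sertoli-like character, Sertoli cells being the somatic supporting cells of the testis. All samples received 2.5 µg of plasmid 24 h after seeding and were lysed 24 h after transfection. The plasmid was the empty vector pcDNA3.1-HA (EV, 6 samples), carried *gdf6Y*, the Y-chromosomal *gdf6* allele of the turquoise killifish (*gdf6Y*, 5 samples), or carried a mutated *gdf6Y* with a short in-frame deletion in the prodomain (del9, 5 samples). Expression was transient in a bulk culture of 1 line, so cells with and without plasmid were measured together. The comparisons of *gdf6Y* with EV and with del9 address which genes of a Sertoli-like cell respond to *gdf6Y*. The labels do not say that the replicates of a group were separate cultures, and p-values measure only the spread between these samples, which may be technical.

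Notch receptors are single-pass membrane proteins that are activated by Jagged and Delta-like ligands on a neighbouring cell. Cleavage by ADAM proteases and γ-secretase releases the intracellular domain, which enters the nucleus, binds the DNA-binding protein *Rbpj* together with Mastermind-like co-activators and switches on Hes and Hey genes. These genes encode basic helix-loop-helix repressors. Without the intracellular domain, *Rbpj* can hold target genes silent through co-repressors such as *Spen*. In the testis, Notch signalling is known as a route of contact between germ cells and Sertoli cells. Gdf6 is a ligand of the BMP branch of the TGF-β family, which acts through Smad proteins. *Hes1* and *Hey1* are known to respond to BMP ligands as well as to Notch in some cell types.

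Between 21486850 and 26444903 reads per sample were counted on genes. Of 12 Sertoli cell markers, 6 had a mean of at least 10 counts, among them *Gata4* with 656 to 872 reads per sample and *Sox9* with 34 to 54, while *Wt1* had 0 reads in all 16 samples and *Fshr*, *Cldn11* and *Aard* had 1 read each. The summed normalised count of the 12 markers was 1694 to 1780 in EV, 1512 to 1629 in *gdf6Y* and 1583 to 1739 in del9 samples. *Gata4* and *Kitl* carried most of this sum, with 12551 and 11216 reads over the 16 samples, and *Dhh* followed with 1371. Of 8 markers of peritubular or smooth muscle cells, 5 had a mean of at least 10 counts. *Acta2* had 3985 to 5336 reads per sample and *Tagln* 3618 to 5055, while *Myh11* had 0 to 3. The sum of the 8 markers was 9491 to 9709 in EV, 10062 to 10667 in *gdf6Y* and 9802 to 10583 in del9 samples. *Acta2* and *Tagln* carried most of this sum, with 74168 and 69509 reads over the 16 samples, and *Mcam* followed with 14293. A mean of at least 10 counts was reached by 1 of 8 endothelial markers (*Egfl7*), 1 of 6 Leydig cell markers (*Star*), 1 of 6 macrophage markers (*Cd68*) and 0 of 6 germ cell markers. The sums of the 8 endothelial markers were 46.8 to 55.8 in EV, 40.8 to 62.2 in *gdf6Y* and 53.6 to 74.4 in del9 samples. The part of these markers in the differences described for the Notch genes was not tested. As a reference for the treatment, 7 genes known to respond to BMP ligands were read (*Id1*, *Id2*, *Id3*, *Smad6*, *Smad7*, *Smad9* and *Atoh8*). All 7 were called higher with *gdf6Y* than with EV and higher than with del9, and *Id1* had log2 fold changes of 0.90 and 0.65. Over all genes tested, 5.08% and 1.01% were called in these comparisons. The study had already reported *Id1*, *Id2*, *Id3*, *Smad6*, *Smad7* and *Smad9* as higher with *gdf6Y* in TM4 cells. The calls of these genes were thus known beforehand and are no independent support. *Id1* and *Id2* were also called higher with del9 against EV, by 0.26 and 0.15 on the log2 scale.

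*Notch2* was the main receptor transcript of these cells, *Jag1* the main ligand transcript and *Hes1* the single target among the 4 that was counted in more than 3 reads. Levels between genes are compared as FPKM, the reads of a gene scaled by its exonic length and by the effective size of the library. Exonic length covers all annotated exons of a gene and can exceed the length of the transcript expressed. The order of genes by FPKM depends on it. In EV samples, FPKM was 9.62 ± 0.479 (SD, n = 6) for *Notch2*, 0.286 ± 0.0562 (SD, n = 6) for *Notch3* and 0.151 ± 0.0236 (SD, n = 6) for *Notch1*. It was 3.72 ± 0.107 (SD, n = 6) for *Jag1*, 0.126 ± 0.0255 (SD, n = 6) for *Jag2* and 1.89 ± 0.212 (SD, n = 6) for *Hes1*. In the order *Notch2*, *Jag1*, *Hes1*, *Notch3*, *Notch1* and *Jag2*, only the last neighbours overlapped between EV samples, with 0.122 to 0.191 FPKM for *Notch1* and 0.0820 to 0.160 for *Jag2*. The mean FPKM of *Notch2* in EV lay above that of 82.2% of the 21630 protein-coding genes in the table. The same share was 68.2% for *Jag1*, 60.6% for *Hes1*, 51.0% for *Notch3*, 49.2% for *Notch1* and 48.7% for *Jag2*.

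**Figure D1:**
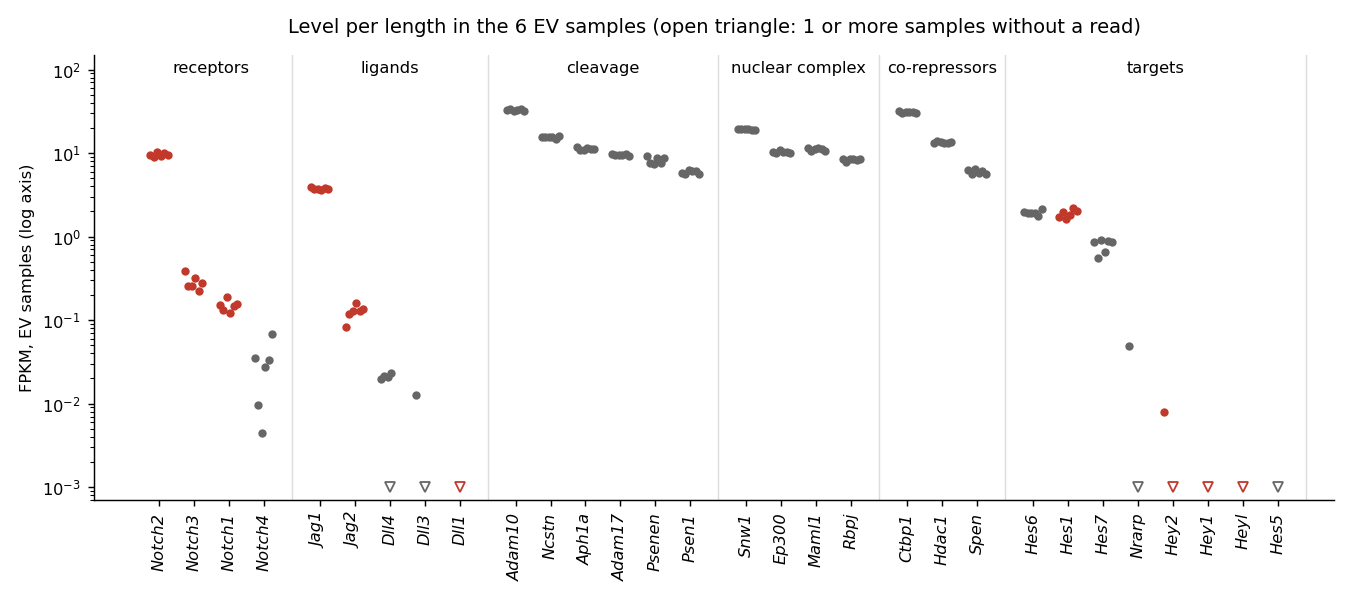
Level per length (FPKM, log axis) of Notch receptors, ligands, cleavage enzymes, nuclear partners, co-repressors and target genes in the 6 EV samples, 1 point per sample. Red points are the 10 members, grey points other Notch genes, and an open triangle marks a gene without a read in 1 or more samples; Notch2 at 9.06 to 10.3 FPKM lies above the other receptors, and Jag1 at a mean of 3.72 above the other ligands.

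The transcript composition of receptors and ligands was similar under the 3 plasmids. *Notch2* made up 95.4% ± 0.643 (SD, n = 6) of the summed FPKM of the 4 Notch receptors in EV, 95.3% ± 0.768 (SD, n = 5) in *gdf6Y* and 95.6% ± 0.371 (SD, n = 5) in del9 samples. *Notch3* contributed 2.85%, 2.72% and 2.51%, and *Notch1* 1.49%, 1.79% and 1.65%, in the same order. *Notch4*, which was not among the 10 genes, contributed 0.293%, 0.221% and 0.237%. *Jag1* made up 96.3% ± 0.532 (SD, n = 6) of the summed FPKM of the 5 ligands in EV, 96.3% ± 0.897 (SD, n = 5) in *gdf6Y* and 97.0% ± 0.721 (SD, n = 5) in del9 samples. *Jag2* accounted for 3.27%, 3.28% and 2.76%. The group ranges of these shares overlapped for each of the receptors and ligands, and no test was made of them.

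*Dll1*, *Hey1*, *Hey2* and *Heyl* were at or below the floor of 3 counts set for all 16 libraries together, and no fold change is given for them. *Dll1*, a Delta-like ligand, had 1 read in *gdf6Y* replicate 4. *Hey1* had 1 read each in *gdf6Y* replicate 3, del9 replicate 1 and del9 replicate 4, and *Hey2* had 1 read in EV replicate 1. *Heyl* had 0 reads in all 16 samples. A total of 3 reads over the 16 libraries corresponds to 0.00153 FPKM for *Dll1*, 0.00159 for *Hey1*, 0.00155 for *Hey2* and 0.00144 for *Heyl*. Expression of these 4 genes was therefore not detectable above that level at this depth, and the floors cover counting error only. Among 6 further Hes and feedback targets, *Hes6* and *Hes7* had a mean of at least 10 counts, while *Nrarp*, a feedback inhibitor of Notch, had 16 reads in all, *Hes3* 2, *Hes2* 1 and *Hes5* 0.

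Promoter windows from RefSeq (GRCm38.p6, 250 bases before to 50 after each annotated start) matched 7 of the 10 members and 43 of 53 other Notch genes by symbol. *Hes1*, *Hey1* and *Heyl* were not matched. Both strands were searched for TGGGAA, the core of the sequence bound by *Rbpj*, and for GGCGCC, a GC-rich site that Smad proteins can bind and that reads the same on both strands. The first was present in 25.6% of all 32851 windows of this length and the second in 11.9%. At least 2 matches were present in 3.79% and 2.04% of the windows. Shown are the windows of *Notch2*, the receptor with the most reads, of *Hey2* and *Hes5*, targets with 1 and 0 reads, and of *Rbpj*, the DNA-binding partner. Capitals mark the matches, and TTCCCA is TGGGAA on the opposite strand.
*Notch2*, chr3:98013288-98013587, plus strand: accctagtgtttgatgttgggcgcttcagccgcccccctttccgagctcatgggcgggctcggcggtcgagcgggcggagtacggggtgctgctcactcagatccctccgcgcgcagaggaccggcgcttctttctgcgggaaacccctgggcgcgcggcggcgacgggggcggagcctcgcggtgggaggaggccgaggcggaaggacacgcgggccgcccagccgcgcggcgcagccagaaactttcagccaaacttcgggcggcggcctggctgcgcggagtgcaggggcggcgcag
*Hey2*, chr10:30842734-30843033, minus strand: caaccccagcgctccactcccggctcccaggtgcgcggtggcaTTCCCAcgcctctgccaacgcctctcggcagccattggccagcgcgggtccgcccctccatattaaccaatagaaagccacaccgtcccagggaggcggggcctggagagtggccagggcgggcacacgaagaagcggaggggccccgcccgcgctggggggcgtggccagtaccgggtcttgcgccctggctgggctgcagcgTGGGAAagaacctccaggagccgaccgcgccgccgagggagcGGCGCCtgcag
*Hes5*, chr4:154960673-154960972, plus strand: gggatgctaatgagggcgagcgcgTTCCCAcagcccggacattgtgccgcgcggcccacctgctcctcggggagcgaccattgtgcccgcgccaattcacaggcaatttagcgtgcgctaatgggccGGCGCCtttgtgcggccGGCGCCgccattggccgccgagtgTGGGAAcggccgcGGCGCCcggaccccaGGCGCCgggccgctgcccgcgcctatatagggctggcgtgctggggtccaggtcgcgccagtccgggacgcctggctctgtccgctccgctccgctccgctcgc
*Rbpj*, first of 2 windows, chr5:53590096-53590395, plus strand: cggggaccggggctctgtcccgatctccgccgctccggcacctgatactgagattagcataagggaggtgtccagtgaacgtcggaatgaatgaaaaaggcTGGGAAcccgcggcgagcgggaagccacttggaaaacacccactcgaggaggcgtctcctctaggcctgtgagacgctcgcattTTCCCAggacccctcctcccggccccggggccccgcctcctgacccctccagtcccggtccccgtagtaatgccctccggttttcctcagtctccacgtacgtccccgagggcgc

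Counted from base 1 at the 5′ end of the printed window, TGGGAA on either strand started at bases 44 and 248 for *Hey2*, at 25 and 169 for *Hes5* and at 102 and 186 for *Rbpj*. GGCGCC was found at base 290 for *Hey2* and at 128, 145, 182 and 197 for *Hes5*. *Hey2* and *Hes5* thus held matches to both letter strings in windows of genes with at most 1 read over the 16 samples. Both strings were also present in windows of the well-read genes *Spen* and *Aph1a* (30982 and 17120 reads). Windows of the targets *Nrarp* and *Hes6* held neither string. The share of all windows with both strings was not counted. The window of *Notch2* held neither string. Of the other members with a window, *Dll1* held GGCGCC once in 1 of its 2 windows, and *Notch1*, *Notch3*, *Jag1* and *Jag2* held neither. A match describes letters only, and no binding was measured in these cells.

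With *gdf6Y* against EV, 1 of the 10 genes was called higher (*Hes1*) and 1 lower (*Notch2*), and the others were not called. At an adjusted p below 0.05 in edgeR's quasi-likelihood test, 5.08% of the 26316 genes tested were called, 1.7% higher and 3.38% lower. Of the 6 members with a mean of at least 10 counts, 2 were called, against 10.5% of the 12584 such genes. Of the 9 members tested, 3 had an unadjusted p below 0.05, and DESeq2 called 2. The median log2 fold change of the 6 members was -0.06, and that of the 12584 genes was 0.00. In bulk samples, a lower level in each cell and fewer cells with the transcript cannot be told apart.

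*Hes1* (GRCm39, chr16:29882134-29886643, plus strand) encodes a basic helix-loop-helix repressor and is a direct target of Notch in many tissues. Its normalised count, scaled to the mean effective library, ranged from 135 to 183 in the 6 EV samples with a median of 158. In *gdf6Y* replicates 1 to 5 it was 184, 235, 227, 219 and 197. In del9 replicates 1 to 5 it was 161, 184, 176, 179 and 196. Each *gdf6Y* sample lay above each EV sample, although the lowest *gdf6Y* sample lay next to the highest EV sample, and del9 samples overlapped with both groups. Of the 12584 genes with a mean of at least 10 counts, 5.24% had groups without overlap in this comparison. The log2 fold change of *Hes1* was 0.44 (SE 0.075, 95% interval 0.29 to 0.59, adjusted p = 1.07e-06), or 35.4% more transcript than with EV. Without 1 sample at a time it was 0.40 to 0.49, and the call held in each of the 11 fits.

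*Notch2* (GRCm39, chr3:97920800-98057677, plus strand), the receptor with the most reads, was lower with *gdf6Y*. Its normalised count was 2515 to 2853 in the EV samples with a median of 2654. In *gdf6Y* replicates 1 to 5 it was 2714, 2311, 2199, 2135 and 2130, and in del9 replicates 1 to 5 it was 2321, 2719, 2575, 2330 and 2435. Replicate 1 of *gdf6Y* lay within the EV range, and the other 4 *gdf6Y* samples lay below all EV samples. The log2 fold change was -0.22 (SE 0.032, 95% interval -0.28 to -0.15, adjusted p = 4.27e-09), or a level lower than with EV by 13.9%. Without *gdf6Y* replicate 1 it was -0.28, and the call held in each of 11 fits without 1 sample. The adjusted p of *Notch2* ranged from 5.06e-13 to 0.0144 over the 10 other alternatives, and that of *Hes1* from 3.55e-09 to 0.00406.

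**Figure D2:**
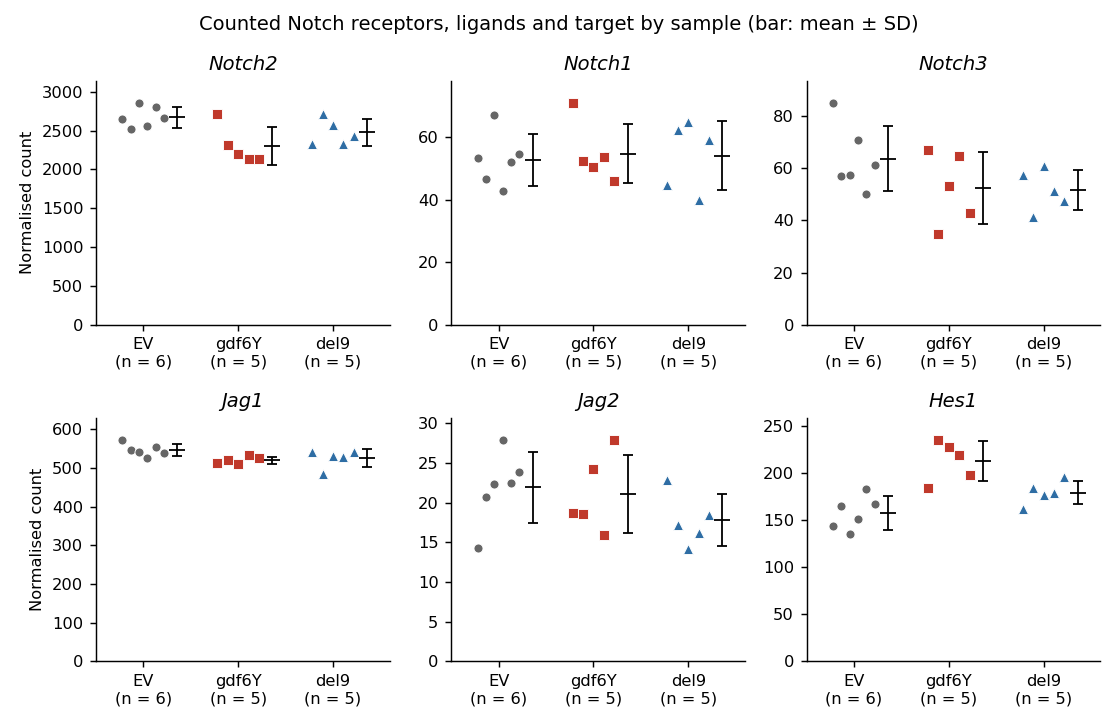
Normalised counts of the 6 Notch genes with a mean of at least 10 counts, 1 point per sample in order of replicate number, with the mean ± SD of each group as a bar. Hes1 is higher in all 5 gdf6Y samples (184 to 235) than in the 6 EV samples (135 to 183), and Notch2 is below the EV range in 4 of 5 gdf6Y samples.

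The other receptors had far fewer reads, and their intervals were wider. *Notch3* (GRCm39, chr17:32339794-32385893, minus strand), a receptor known from vascular smooth muscle, had normalised counts of 50.2 to 85.0 in EV with a median of 59.4. Its counts were 67.0, 35.0, 53.3, 64.7 and 42.9 in *gdf6Y* and 57.3, 41.2, 60.8, 51.3 and 47.5 in del9 replicates 1 to 5. The groups overlapped, and *gdf6Y* differed from EV by -0.27 on the log2 scale (SE 0.13, 95% interval -0.52 to -0.01, adjusted p = 0.303). *Notch1* (GRCm39, chr2:26347915-26406675, minus strand), a receptor studied in Sertoli cells, had 42.9 to 67.0 in EV with a median of 52.9. It had 71.0, 52.5, 50.5, 53.7 and 46.1 in *gdf6Y* and 44.9, 62.3, 64.8, 39.9 and 59.1 in del9 replicates 1 to 5. The groups overlapped, with a log2 fold change of 0.06 (SE 0.13, 95% interval -0.21 to 0.32, adjusted p = 0.874) against EV. Without *gdf6Y* replicate 1, the sample with the highest *Notch1* count, it was -0.05.

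The ligands were not called with *gdf6Y* against EV. *Jag1* (GRCm39, chr2:136923373-136958693, minus strand), the Jagged ligand that carried most ligand reads, had normalised counts of 525 to 572 in EV with a median of 543. It had 513, 520, 509, 533 and 525 in *gdf6Y* and 541, 484, 530, 528 and 541 in del9 replicates 1 to 5. The difference from EV was -0.07 on the log2 scale (SE 0.047, 95% interval -0.16 to 0.02, adjusted p = 0.528), so the interval holds no change beyond 0.16 in either direction. *Jag2* (GRCm39, chr12:112871421-112893437, minus strand) had 14.3 to 27.9 in EV with a median of 22.4, 15.9 to 27.9 in *gdf6Y* with a median of 18.7, and 14.2 to 22.9 in del9 with a median of 17.2. The 3 ranges overlapped, with a log2 fold change of -0.05 against EV (SE 0.21, 95% interval -0.47 to 0.36, adjusted p = 0.945).

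With *gdf6Y* against del9, the control plasmid with the mutated gene, edgeR's test called 0 of the 10 genes. Of 25878 genes tested, 1.01% were called, and of the 12584 genes with a mean of at least 10 counts 1.8% were called and 2.19% had groups without overlap. Of the 8 members tested, 2 had an unadjusted p below 0.05, *Hes1* and *Notch2*, and DESeq2 called 0. The log2 fold change of *Hes1* was 0.25 (SE 0.076, 95% interval 0.10 to 0.40, adjusted p = 0.0770). That of *Notch2* was -0.10 (SE 0.035, 95% interval -0.17 to -0.03, adjusted p = 0.162). For both genes the groups overlapped, with *gdf6Y* replicate 1 placed among the del9 samples. Without that sample, the values were 0.30 for *Hes1* (adjusted p = 0.0184) and -0.17 for *Notch2* (adjusted p = 4.88e-04), both called. Without del9 replicate 1, *Notch2* was called at -0.13 (adjusted p = 0.0363). With the replicate number as a block, *Hes1* (adjusted p = 0.0107) and *Notch2* (adjusted p = 0.0109) were both called, but whether the numbers pair samples is not settled. Without 1 sample at a time, the adjusted p of *Hes1* ranged from 0.0184 to 0.265 and that of *Notch2* from 4.88e-04 to 0.709. *Notch1* differed by 0.03 (95% interval -0.24 to 0.29), *Notch3* by 0.05 (-0.23 to 0.32), *Jag1* by -0.01 (-0.11 to 0.09) and *Jag2* by 0.25 (-0.20 to 0.70).

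With del9 against EV, *Notch2* was called lower and 0 members were called higher. Of 26226 genes tested, 9.25% were called, and of the 12584 genes with a mean of at least 10 counts 18.2% were called and 7.46% had groups without overlap. Of the 8 members tested, 3 had an unadjusted p below 0.05, and DESeq2 called 0. The log2 fold change of *Notch2* was -0.11 (SE 0.030, 95% interval -0.17 to -0.05, adjusted p = 0.00612), and the groups overlapped. The call was lost without EV replicate 3 (adjusted p = 0.0716) and without del9 replicate 4 (adjusted p = 0.0679). It was also lost with DESeq2 (adjusted p = 0.0515) and with filterByExpr (adjusted p = 0.0542). *Hes1* differed by 0.19 (SE 0.077, 95% interval 0.04 to 0.34, adjusted p = 0.105) and was called without EV replicate 5, at 0.24 (adjusted p = 0.0387). *Notch3* differed by -0.31 (95% interval -0.56 to -0.06, adjusted p = 0.128), *Jag2* by -0.29 (-0.72 to 0.14), *Jag1* by -0.06 (-0.15 to 0.04) and *Notch1* by 0.03 (-0.22 to 0.29). The 3 comparisons share samples 2 at a time, and their values are given side by side without a test between them.

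**Figure D3:**
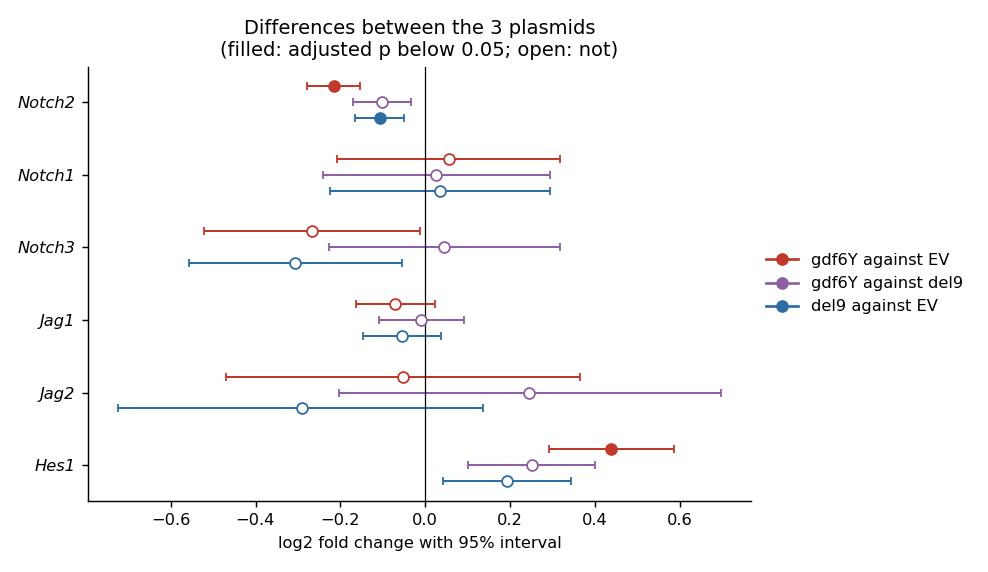
Log2 fold changes of the 6 Notch genes with a mean of at least 10 counts in the 3 comparisons, with 95% intervals; filled points passed an adjusted p of 0.05 and open points did not. Filled points are Hes1 (0.44) and Notch2 (-0.22) in gdf6Y against EV and Notch2 (-0.11) in del9 against EV.

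The remaining machinery of the pathway was read in a list of 53 genes, of which 41 had a mean of at least 10 counts. With *gdf6Y* against EV, 2 of the 53 were called higher and 6 lower (49 tested, 10 with an unadjusted p below 0.05, 9 called by DESeq2). With *gdf6Y* against del9, 0 were called higher and 1 lower (51 tested, 5 with an unadjusted p below 0.05, 0 called by DESeq2). Del9 against EV had 4 called higher and 7 lower (52 tested, 13 with an unadjusted p below 0.05, 9 called by DESeq2). The median log2 fold change of the 41 genes was -0.01, 0.00 and -0.01 in the 3 comparisons, against 0.00, 0.00 and 0.01 over the 12584 genes. All called genes were among the 41, so that 8, 1 and 11 of the 41 were called in the 3 comparisons, against 10.5%, 1.8% and 18.2% of the 12584 genes. Of the 41 genes, 28 were called in no comparison.

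In the nuclear complex, 2 of 7 genes were called lower with *gdf6Y* against EV, where 10.5% of the 12584 genes were called in either direction. *Rbpj*, through which all Notch receptors reach DNA, had normalised counts of 2499 to 2708 in EV with a median of 2655, and 2260, 2199, 2281, 2292 and 2213 in *gdf6Y* replicates 1 to 5. All *gdf6Y* samples lay below all EV samples and also below the del9 samples, which had 2370, 2418, 2404, 2572 and 2450. Of the 12584 genes with a mean of at least 10 counts, 5.24% and 2.19% had groups without overlap in these comparisons. The log2 fold change of *Rbpj* was -0.22 against EV (SE 0.031, adjusted p = 2.93e-10), -0.11 against del9 (SE 0.035, adjusted p = 0.0789) and -0.10 for del9 against EV (SE 0.030, adjusted p = 0.00910). *Ep300*, a histone acetyltransferase that acts as a co-activator, had 3756 to 4127 in EV and 3746, 3282, 3286, 3412 and 2811 in *gdf6Y*. Its log2 fold change was -0.24 with *gdf6Y* (SE 0.030, adjusted p = 2.89e-12) and -0.15 with del9 (SE 0.028, adjusted p = 8.75e-06) against EV. Between *gdf6Y* and del9 it was -0.08 (adjusted p = 0.346). *Maml2*, a Mastermind-like co-activator, was called lower with del9 against EV by 0.16 on the log2 scale (adjusted p = 0.0116), a call lost with DESeq2 (adjusted p = 0.0540), with filterByExpr and without EV replicate 1 or 3 or del9 replicate 5.

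Among 3 co-repressors of *Rbpj*, 1 was called lower with *gdf6Y* both against EV and against del9, and 1 was called higher against EV. With del9 against EV, 2 were called higher and 1 lower. Of the 12584 genes with a mean of at least 10 counts, 10.5% were called with *gdf6Y* against EV. The same share was 1.8% against del9 and 18.2% with del9 against EV. *Spen*, a large scaffold that brings histone deacetylases to *Rbpj*, had 1968 to 2265 in EV, 1949, 1796, 1735, 1711 and 1477 in *gdf6Y*, and 1961, 2117, 1859, 1841 and 1962 in del9. All *gdf6Y* samples lay below the EV samples, where 5.24% of the 12584 genes had groups without overlap. Replicate 1 of *gdf6Y* lay among the del9 samples. The log2 fold change of *Spen* was -0.27 against EV (SE 0.033, adjusted p = 1.40e-12) and -0.16 against del9 (SE 0.036, adjusted p = 0.00149). Against del9, the call was lost with DESeq2 (adjusted p = 0.317), with filterByExpr (adjusted p = 0.320), without del9 replicate 2 (adjusted p = 0.0668) and without *gdf6Y* replicate 5 (adjusted p = 0.161). *Hdac1*, a histone deacetylase, was called higher by 0.10 with *gdf6Y* (adjusted p = 0.0441) and by 0.11 with del9 (adjusted p = 0.0172) against EV, and *Ctbp1* by 0.11 with del9 (adjusted p = 0.00146). The call of *Hdac1* with *gdf6Y* was lost in 9 of the 11 fits without 1 sample, all but those without EV replicate 2 or *gdf6Y* replicate 1, and the call with del9 was lost without EV replicate 1 or del9 replicate 3 or 5. The call was also lost in 4 of the 10 other alternatives with *gdf6Y* (highest adjusted p = 0.131) and in 3 of 10 with del9 (highest adjusted p = 0.0893), a correction for exonic length among them in both. *Spen* was called lower with del9 against EV by 0.10 (adjusted p = 0.0225), a call lost with DESeq2, with filterByExpr, with all 3 groups in one model, in 2 fits corrected for exonic length, and without EV replicate 1 or 3 or del9 replicate 3 or 4.

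**Figure D4:**
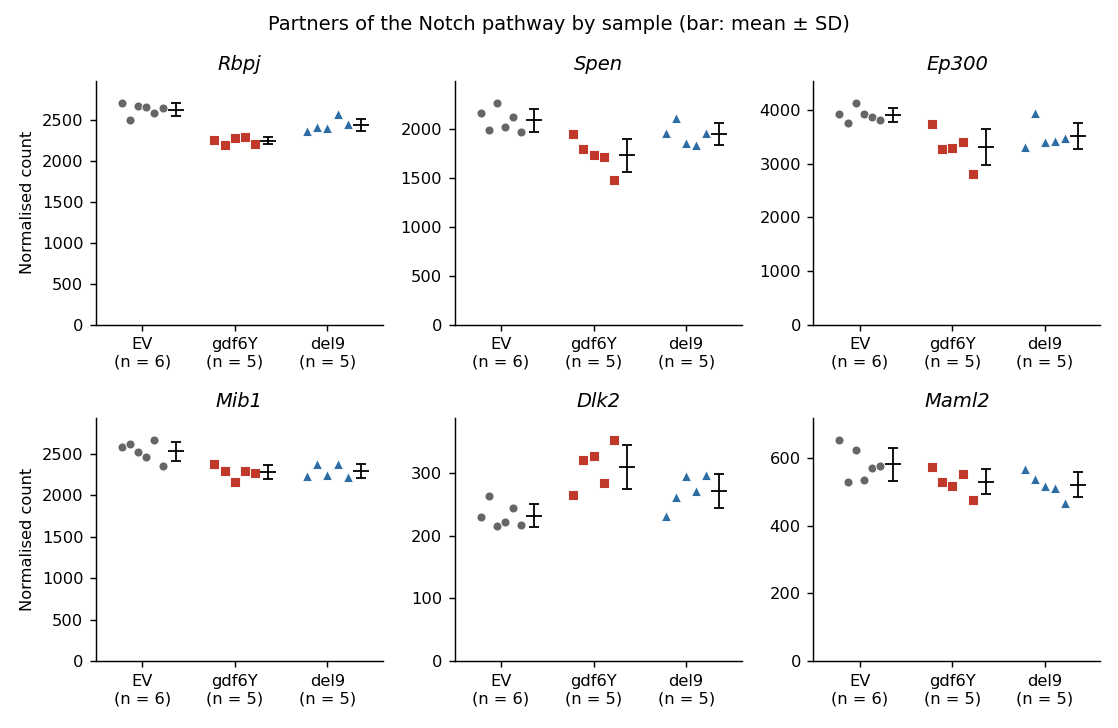
Normalised counts of Rbpj, Spen, Ep300, Mib1, Dlk2 and Maml2, 1 point per sample in order of replicate number, with the mean ± SD of each group as a bar. Rbpj is lower in the 5 gdf6Y samples (2199 to 2292) than in the EV samples (2499 to 2708), and Dlk2 is higher in gdf6Y (265 to 352) than in EV (215 to 262).

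Enzymes that process ligands and receptors were mostly not called. For the counts given here, 10.5% of the 12584 genes with a mean of at least 10 counts were called with *gdf6Y* against EV. The same share was 18.2% with del9 against EV and 1.8% with *gdf6Y* against del9. Of 4 ubiquitin ligases of the ligands, *Mib1*, which primes ligands for endocytosis, was called lower by 0.15 on the log2 scale with *gdf6Y* (SE 0.031, adjusted p = 1.28e-04) and by 0.14 with del9 (SE 0.030, adjusted p = 1.13e-04) against EV. Between *gdf6Y* and del9 it was 0.00 (95% interval -0.07 to 0.07). *Neurl1b*, a Neuralized ubiquitin ligase of the ligands, was called lower with del9 against EV by 0.39 (SE 0.13, adjusted p = 0.0301), with overlapping groups of 53.5 to 77.8 normalised counts in EV and 41.5 to 58.2 in del9. Its call was lost without filter (adjusted p = 0.0652) and without EV replicate 3 or 4 or del9 replicate 3 or 5 (highest adjusted p = 0.143), and with *gdf6Y* against EV it was -0.19 (adjusted p = 0.519). Of 8 genes of receptor traffic and turnover, 7 had a mean of at least 10 counts. Against EV, 2 were called lower with *gdf6Y* and 1 with del9, beside 10.5% and 18.2% of the 12584 genes in either direction. *Dtx4*, a Deltex ubiquitin ligase, was lower with *gdf6Y* by 0.17 (SE 0.043, adjusted p = 0.00442), a call lost without EV replicate 1 (adjusted p = 0.0526). *Fbxw7*, an F-box subunit of a ubiquitin ligase that marks the receptor's intracellular domain for breakdown, was lower with *gdf6Y* by 0.12 (SE 0.039, adjusted p = 0.0468), a call lost in 9 of the 11 fits without 1 sample, all but those without EV replicate 1 or *gdf6Y* replicate 1 (highest adjusted p = 0.267), and in 5 of the 10 other alternatives (highest adjusted p = 0.103). *Itch*, a ubiquitin ligase that promotes breakdown of the receptor, was lower with del9 by 0.09 (SE 0.031, adjusted p = 0.0303). Its call was lost in 6 of the 11 fits without 1 sample, those without EV replicate 3, 4 or 6 or del9 replicate 1, 3 or 5 (highest adjusted p = 0.130), and in 3 of the 10 other alternatives (adjusted p = 0.253 after the correction for exonic length). The 2 ADAM proteases, the S1 protease *Furin* and the 6 γ-secretase genes with a mean of at least 10 counts were called in no comparison, with log2 fold changes from -0.06 to 0.11. The same held for the 4 Groucho co-repressors, with log2 fold changes from -0.15 to 0.11. Of the 4 counted glycosyltransferases, 1 was called, *Poglut1*, which adds O-glucose to receptors, at 0.10 in del9 against EV (adjusted p = 0.0290), a call lost in 4 of the 10 other alternatives (highest adjusted p = 0.0903) and in 6 of the 11 fits without 1 sample, those without EV replicate 1, 2, 4 or 6 or del9 replicate 2 or 5 (highest adjusted p = 0.119). Among 3 noncanonical ligands, *Dlk2* was counted, and it was called higher with *gdf6Y* by 0.42 (SE 0.063, adjusted p = 1.41e-08) and with del9 by 0.23 (SE 0.064, adjusted p = 0.00774) against EV. Its normalised counts were 215 to 262 in EV, 265, 319, 327, 284 and 352 in *gdf6Y*, and 231, 261, 295, 271 and 296 in del9. The difference of *Dlk2* between *gdf6Y* and del9 was 0.20 (SE 0.065, adjusted p = 0.126), and its call with del9 was lost without del9 replicate 3 or 5 and in 1 of the 10 other alternatives (adjusted p = 0.0676). The counted targets *Hes6* and *Hes7* were not called, with log2 fold changes of 0.09 and 0.08 with *gdf6Y* against EV.

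Several of the genes called lower have long exonic sequences. *Notch2* has 11264 bases of exonic sequence, *Rbpj* 12849, *Spen* 14180, *Ep300* 15309 and *Mib1* 16790, against a median of 6152 over 12549 genes with a mean of at least 10 counts. *Hes1* has 3376 and *Dlk2* 2884. Over all genes, the median log2 fold change of *gdf6Y* against EV was 0.04 in the 3139 shortest genes (up to 3740 bases) and -0.04 in the 3139 longest (from 9203 bases). These medians were 0.04 and -0.03 with del9 against EV, and 0.00 and -0.01 with *gdf6Y* against del9. A correction for exonic length took out the smooth trend of each sample on length over all genes. It does not remove a shift beyond that trend that some long genes may share, and such a shift was not tested. After this correction, the log2 fold change of *gdf6Y* against EV was -0.18 for *Notch2* (adjusted p = 3.39e-07), 0.41 for *Hes1* (adjusted p = 6.98e-06), -0.18 for *Rbpj* (adjusted p = 7.29e-07), -0.21 for *Spen* (adjusted p = 6.14e-09) and -0.17 for *Ep300* (adjusted p = 1.15e-07). The call of *Mib1* was lost at -0.08 (adjusted p = 0.159). With the replicate number as a block as well, *Mib1* was called at -0.09 (adjusted p = 0.0170). With del9 against EV, *Notch2* (-0.08, adjusted p = 0.0496), *Ep300* (-0.10, adjusted p = 0.00402) and *Mib1* (-0.09, adjusted p = 0.0351) stayed called after the length correction. The calls of *Rbpj* (-0.07, adjusted p = 0.133) and *Spen* (-0.06, adjusted p = 0.304) were lost.

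The genes most similar to *Notch2* and *Hes1* over the 16 samples were sought among 10070 genes with a mean of at least 100 counts. Pearson's r of log2 values with *Notch2* was 0.971 for *Rnf213*, 0.963 for *Hspg2* and 0.958 for *Mdn1*. These genes are long as well, with 16719, 15935 and 22757 bases of exonic sequence. The 3 genes were lower in *gdf6Y* than in EV, for example 4319 ± 855 (SD, n = 5) against 5583 ± 370 (SD, n = 6) normalised counts for *Rnf213*, with 4785 ± 717 (SD, n = 5) in del9. With *Hes1*, r was 0.915 for *Rrm2*, a subunit of ribonucleotide reductase, 0.871 for *Tjap1* and 0.867 for *Ugdh*, which makes UDP-glucuronate. The normalised count of *Rrm2* was 8362 ± 384 (SD, n = 6) in EV, 9900 ± 363 (SD, n = 5) in *gdf6Y* and 8987 ± 442 (SD, n = 5) in del9. These correlations were computed over samples that fall into 3 groups and differ in depth, and they are given as a description. The genes were chosen for following *Notch2* or *Hes1* in these same samples. Their differences between groups are therefore no separate result. Samples also differed within groups. *Notch2*, *Spen* and *Ep300* were each highest of the *gdf6Y* samples in replicate 1 (2714, 1949 and 3746). Of the del9 samples, each was highest in replicate 2 (2719, 2117 and 3947). The differences of these genes should therefore not be read as independent of each other.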

How the data were processed

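RNA of TM4 cells was measured in 6 EV, 5 gdf6Y and 5 del9 samples. The study states that replicate 6 of gdf6Y and of del9 was left out of its differential test for lower read quality. Neither is among these samples. The authors extracted unique molecular identifiers with UMI-tools, aligned the reads with STAR 2.7.10a to GRCm39, removed PCR duplicates and counted uniquely mapped reads per gene on their strand with featureCounts 2.0.3, per the labels and the study's methods. The deposited counts are raw reads per gene, with 21486850 to 26444903 per sample. Low counts limit precision as the intervals show.

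Symbols, GRCm39 positions and exonic lengths came from GENCODE release M39, which matched 56017 of the 56748 identifiers and is not the annotation used for counting. Genes counted at least once among the samples compared (minimum 1) were tested with edgeR 4.0.16 (quasi-likelihood test, TMM, 2 groups per model, two-sided) in R 4.3.3, with Benjamini-Hochberg adjustment over all genes tested. Genes were called at an adjusted p below 0.05. Normalised counts were scaled to the mean effective library of the 16 samples. Standard errors were the size of the log2 fold change over the square root of F, and 95% intervals came from the same fit. The steps were tested on simulated data.

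Tried as alternatives were DESeq2 1.42.0, scaling by its size factors or by total counts, filterByExpr, no filter, all 3 groups in one model, the dispersion estimate of edgeR 4, the replicate number as a block, a correction for exonic length, both of these, and each sample left out. The members and gene lists were chosen with earlier results of these data known. Named were the 10 members, up to 8 called genes of the other Notch list per comparison by smallest adjusted p, the BMP-responsive genes, defining markers, and the 3 genes most correlated with each of the 2 members of smallest adjusted p. Other genes named for being called, counted or unread were chosen after their values were seen. A further pathway gene was left out of the lists and is not reported here.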

Additional observations from a re-analysis of the deposited data

Results flagged for a closer look

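In groups of 5 or 6 samples, 57 sets of normalised counts (19 genes in 3 groups) were searched for a lowest or highest sample that stood far from the others, measured as its gap to the nearest sample divided by the range of the group (Dixon's ratio). At the 95% critical value, chance gives about 2.85 of 57, and 3 were found. Jag1 was 484 in del9 replicate 2 and 528 to 541 in the other del9 samples (ratio 0.771). Ep300 was 3947 in del9 replicate 2 and 3313 to 3474 in the others (ratio 0.746). Itch, a ubiquitin ligase of receptor turnover, was 2218 in EV replicate 2 and 2315 to 2352 in the others (ratio 0.722).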

How the results depend on the processing

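With gdf6Y against EV, the calls of Hes1 and Notch2 held under all 10 alternatives and in the 11 fits without 1 sample. The fit without a block was kept because the labels tie replicate numbers to no shared batch and not every pair correlated over 0.1. Correlations of the deviations of same-numbered samples over 12584 genes ranged from -0.04 to 0.19 and 9 of 15 were over 0.1. The range was -0.003 to 0.19 for gdf6Y against EV, 0.091 to 0.16 for gdf6Y against del9 and -0.039 to 0.16 for del9 against EV. In 14 of 30 cases a sample correlated best with its own number in the other group. They were 6 of 10 for gdf6Y against EV, 6 of 10 for gdf6Y against del9 and 2 of 10 for del9 against EV. How many such cases chance would give was not tested, and whether the numbers pair samples is not settled. With the replicate block, 2 members were called with gdf6Y against del9, Notch2 at -0.10 (adjusted p = 0.0109) and Hes1 at 0.25 (adjusted p = 0.0107), and 2 with the block and the length correction, Notch2 at -0.092 (adjusted p = 0.0292) and Hes1 at 0.26 (adjusted p = 0.00828). Of the other Notch genes, 4 and 3 were called in these fits, 0 with DESeq2 and 0 with filterByExpr, against 1. With del9 against EV, 2 members were called with the block (Hes1 at 0.21, adjusted p = 0.0406), 0 with DESeq2 (Notch2 at -0.11, adjusted p = 0.0515) and 0 with filterByExpr (Notch2 at -0.11, adjusted p = 0.0542). The cause was not tested.

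Without 1 sample at a time, the log2 fold change with gdf6Y against EV was -0.053 to 0.14 for Notch1 and -0.17 to 0.039 for Jag2. With gdf6Y against del9 it was -0.087 to 0.091 for Notch1, -0.17 to -0.069 for Notch2, -0.057 to 0.15 for Notch3, -0.040 to 0.0019 for Jag1 and 0.21 to 0.30 for Hes1. For del9 against EV it was -0.034 to 0.13 for Notch1, -0.14 to -0.086 for Notch2 and 0.15 to 0.24 for Hes1. Members called were 0 to 2 in both of these comparisons, and other Notch genes called were 0 to 3 with gdf6Y against del9 and 5 to 12 with del9 against EV.

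Over all genes, 912 were higher and 1202 lower with gdf6Y against EV with the block, 474 and 627 with the length correction and 903 and 867 with both, against 448 and 890. With gdf6Y against del9, 155 were higher and 106 lower, against 48 and 33 with DESeq2, 26 and 19 with filterByExpr, 104 and 59 with the edgeR 4 dispersion, 289 and 372 with the block and 377 and 271 with the block and the length correction. For del9 against EV, 1263 were higher and 1162 lower, against 863 and 1492 with total counts. The low counts of Notch1, Notch3 and Jag2 limit these comparisons to the intervals given.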
